A study of Mus musculus with 4 samples.

Results

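The immunoglobulin heavy variable genes (Ighv) were described in lung RNA of WT and Rab44-KO mice. They were taken as every gene of the deposited count table whose symbol starts with Ighv, which gave 183 of 41079 genes in 16 V families. The family is the number that follows Ighv in the symbol. There were 4 libraries, 1 from normal and 1 from OVA-induced lungs of each genotype. Wherever 4 values follow each other, normal WT comes first, then normal Rab44-KO, then OVA-induced WT and last OVA-induced Rab44-KO. The mice were female littermates of 8 to 14 weeks on a C57BL/6 background, and the Rab44-KO animals carried a Rab44 gene edited by CRISPR/Cas9. OVA-induced mice received 100 μg of ovalbumin (OVA) with alum intraperitoneally on days 0, 7 and 14, then 100 μg OVA in 50 μL by the nose from day 17 to day 20, and lungs were taken on day 21. The labels give normal mice no treatment, while the protocol also names 50 μL of PBS by the nose without saying for which mice. Whether the lungs were lavaged before RNA extraction, and how many mice were pooled or sampled per library, are not given in the sources used here. The comparisons ask how these genes differ with Rab44 loss and with OVA induction. With 1 library per group no difference has a replicate check, so each is a comparison of libraries and carries no p-value.

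A heavy chain variable domain is encoded by a V segment joined to a D and a J segment in each developing B cell, with the V segment supplying most of its coding sequence. The V segments lie in a row on 1 chromosome, and a B cell normally expresses a single rearranged V segment. In bulk tissue the mix of V transcripts reflects which V segments the B lineage cells carry and how much immunoglobulin RNA those cells make. Unrelated clones can carry the same V segment, so counts per V gene do not count clones. Plasma cells and plasmablasts hold far more of this RNA per cell than resting B cells. Fewer B lineage cells and less RNA per cell cannot be told apart in these libraries.

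All 183 genes lie on the minus strand of chromosome 12, over 2437 kb between the first and the last V start. The V exons below are germline sequences of the C57BL/6 reference from GENCODE M21 transcripts (GRCm38), 5′ to 3′, each limited to its last 290 bases. They were chosen because the results turn on them. Ighv1-26 held the most counts in both OVA-induced libraries. Ighv14-2 and Ighv14-3, Ighv1-75 and Ighv1-84, and Ighv5-4 and Ighv5-12 are pairs of close copies whose counts lay in opposite directions between WT and Rab44-KO. These pairs were picked for that, and other close copies lay in the same direction. Ighv14-1 is the closest exon to both Ighv14-2 (97.0%) and Ighv14-3 (96.1%), and had 322 and 19 counts in OVA-induced WT and Rab44-KO. Ighv1-59 and Ighv1-69 are 97.4% identical and were both lower in OVA-induced Rab44-KO. Ighv5-16 and Ighv13-2 had the largest ratios toward Rab44-KO among members with at least 30 counts. Capitals mark bases that differ, position by position without gaps, from the partner of the pair, or, for Ighv1-26, Ighv5-16 and Ighv13-2, from the closest other V exon, which is Ighv1-18, Ighv5-12 and Ighv6-3. The exons of Ighv13-2 and Ighv6-3 differ in length and were aligned with gaps.
Ighv1-26 (chr12:114788372-114788661): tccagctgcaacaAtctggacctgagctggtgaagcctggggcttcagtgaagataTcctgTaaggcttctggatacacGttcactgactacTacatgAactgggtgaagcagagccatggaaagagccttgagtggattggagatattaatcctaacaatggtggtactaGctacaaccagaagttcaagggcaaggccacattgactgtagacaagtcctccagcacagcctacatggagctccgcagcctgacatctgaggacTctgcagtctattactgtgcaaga
Ighv14-2 (chr12:113994469-113994758): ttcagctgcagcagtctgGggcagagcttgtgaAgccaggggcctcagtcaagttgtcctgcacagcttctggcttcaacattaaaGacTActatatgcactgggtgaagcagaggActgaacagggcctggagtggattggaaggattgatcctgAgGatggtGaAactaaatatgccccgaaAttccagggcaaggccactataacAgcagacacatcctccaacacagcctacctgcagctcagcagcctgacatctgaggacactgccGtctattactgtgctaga
Ighv14-3 (chr12:114059845-114060134): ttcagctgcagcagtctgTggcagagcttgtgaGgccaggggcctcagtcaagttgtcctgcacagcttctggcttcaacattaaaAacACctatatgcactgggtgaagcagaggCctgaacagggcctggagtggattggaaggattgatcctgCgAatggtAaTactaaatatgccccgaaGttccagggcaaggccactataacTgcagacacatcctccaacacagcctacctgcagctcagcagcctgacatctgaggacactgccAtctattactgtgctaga
Ighv1-75 (chr12:115833950-115834239): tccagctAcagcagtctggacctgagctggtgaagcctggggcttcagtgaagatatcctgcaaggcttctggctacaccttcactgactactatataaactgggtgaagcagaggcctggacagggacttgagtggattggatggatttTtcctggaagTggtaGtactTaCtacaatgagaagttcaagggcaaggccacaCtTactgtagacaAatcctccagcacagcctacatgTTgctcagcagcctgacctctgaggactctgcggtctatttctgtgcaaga
Ighv1-84 (chr12:115980702-115980991): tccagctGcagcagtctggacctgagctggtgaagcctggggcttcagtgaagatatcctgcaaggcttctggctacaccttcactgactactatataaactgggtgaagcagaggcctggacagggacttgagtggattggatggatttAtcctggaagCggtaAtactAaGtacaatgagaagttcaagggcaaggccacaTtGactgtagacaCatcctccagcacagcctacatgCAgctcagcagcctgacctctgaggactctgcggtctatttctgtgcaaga
Ighv5-4 (chr12:113597446-113597735): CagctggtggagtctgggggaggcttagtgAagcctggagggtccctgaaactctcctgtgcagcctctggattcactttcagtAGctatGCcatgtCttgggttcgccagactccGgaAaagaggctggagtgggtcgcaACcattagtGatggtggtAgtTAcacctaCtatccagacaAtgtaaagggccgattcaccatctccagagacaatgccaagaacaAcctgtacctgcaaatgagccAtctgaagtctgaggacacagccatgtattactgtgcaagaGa
Ighv5-12 (chr12:113702124-113702413): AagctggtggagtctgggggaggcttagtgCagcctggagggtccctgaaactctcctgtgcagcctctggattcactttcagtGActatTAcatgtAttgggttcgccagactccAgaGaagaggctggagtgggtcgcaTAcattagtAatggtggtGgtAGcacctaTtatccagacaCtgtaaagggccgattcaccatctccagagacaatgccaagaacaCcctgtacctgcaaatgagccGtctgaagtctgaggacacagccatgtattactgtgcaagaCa
Ighv5-16 (chr12:113838526-113838815): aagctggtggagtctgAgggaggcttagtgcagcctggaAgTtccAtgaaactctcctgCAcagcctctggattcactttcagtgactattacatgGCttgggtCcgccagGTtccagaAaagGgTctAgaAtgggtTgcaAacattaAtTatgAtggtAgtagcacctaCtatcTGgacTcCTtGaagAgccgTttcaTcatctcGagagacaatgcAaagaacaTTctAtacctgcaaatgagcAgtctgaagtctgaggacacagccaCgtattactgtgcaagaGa
Ighv13-2 (chr12:114357759-114358048): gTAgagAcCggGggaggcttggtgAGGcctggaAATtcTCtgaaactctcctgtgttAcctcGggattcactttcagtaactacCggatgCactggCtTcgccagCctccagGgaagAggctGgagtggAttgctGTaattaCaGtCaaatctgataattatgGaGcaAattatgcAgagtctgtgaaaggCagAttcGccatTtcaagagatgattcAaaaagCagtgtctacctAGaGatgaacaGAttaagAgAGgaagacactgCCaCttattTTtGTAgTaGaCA
Ighv14-2 and Ighv14-3 were 95.8% identical over the V exon with 13 differences, Ighv1-75 and Ighv1-84 were 96.1% identical with 12, and Ighv5-4 and Ighv5-12 were 93.5% identical with 20. Ighv13-2 stood apart, at 80.2% identity to its closest exon. A read that covers several of these capitals separates the members of a pair.

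Members without a count were mostly pseudogenes. RefSeq types 120 members as V segments and 63 as pseudogenes. No count was found in any library for 74 members, which were 53 pseudogenes and 21 V segments. A count was found in all 4 libraries for 55 members, 80 reached 10 counts in at least 1 library, and 29 had between 1 and 9 counts at most. A reading frame without a stop codon across the V exon was present in 98 of 99 V segments with a count and in 15 of 21 at 0. Among pseudogenes it was present in 3 of 10 with a count and in 3 of 53 at 0. The letters TGTGCAAGA, which encode the conserved cysteine and the residues after it where the frame is kept, lay in the last 30 bases of 58 of 99 V segments with a count and 9 of 21 at 0, and of 4 of 10 and 13 of 53 pseudogenes. They were searched on the coding strand only. The pseudogenes together held 24, 15, 318 and 40 counts. Ighv7-1 alone held 263 of the 318. It and Ighv7-3 have an open frame and are typed as V genes by GENCODE and as pseudogenes by RefSeq. Conversely, GENCODE types 9 of the 120 RefSeq V segments as pseudogenes.

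Summed over all members, normal lungs held 426 Ighv counts in WT and 559 in Rab44-KO, and OVA-induced lungs held 15432 and 5561. Scaled by TMM to CPM (counts divided by library size and scaled to a common total) these were 22.2 (20.1 to 24.4), 30.6 (28.1 to 33.3), 797 (784 to 809) and 285 (278 to 293), with exact 95% Poisson intervals. Both OVA-induced libraries were far above both normal ones, and the order of the genotypes was opposite in the normal and the OVA-induced pair. Between libraries, OVA-induced WT was 35.9-fold above normal WT (32.6 to 39.6), and OVA-induced Rab44-KO was 9.31-fold above normal Rab44-KO (8.54 to 10.2). Rab44-KO was 1.38-fold above WT in normal lungs (1.21 to 1.57) and 2.79-fold below WT in OVA-induced lungs (2.71 to 2.88). Intervals of a ratio follow from the exact 95% Clopper-Pearson interval of a share of 2 counts. All of these intervals cover counting error only, and reads from amplified libraries are not independent molecules.

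Total counts were 18112901 to 19910236 per library, and 24316 to 25003 genes had a count. Rab44 itself had 251, 1, 810 and 0 counts. The 6 lung markers (among them Sftpc, a surfactant protein, and Scgb1a1, a club cell protein) summed to 792826, 728500, 815307 and 628350 counts, with Sftpc at 361981 and 181126 and Scgb1a1 at 320451 and 356547 in the OVA-induced pair. The 10 B cell markers, none at 0 in any library, summed to 4837, 3549, 9680 and 6158 counts. The 10 plasma cell markers, also none at 0, summed to 13415, 12728, 34154 and 17985. The 7 T cell markers summed to 1064, 1042, 2478 and 1200. Lymphoid stroma markers summed to 1280, 1197, 1854 and 1197, with Glycam1 at 0 in every library. The B, plasma and T cell, lymphoid stroma and lung sums were thus all highest in OVA-induced WT, as the Ighv sum was. The summed log2 ratio in the OVA-induced pair was -0.66, -0.93, -1.06, -0.64 and -0.39 for these lists in that order, and their part in the Ighv differences was not tested. A sum is weighted to genes with many counts. In the plasma cell list Sdc1, Xbp1 and Txndc5 had 5593, 3171 and 3427 counts in normal WT, with log2 ratios of -0.30, -0.30 and -0.64 in the OVA-induced pair. Jchain, Mzb1, Irf4 and Tnfrsf17 lay at -1.74, -2.38, -1.64 and -2.35, Derl3 and Pou2af1 at -1.14 and -0.36, and Prdm1 at 0.04.

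Few genes held most of the counts in each library, but the leading genes differed. Ighv1-53 led in normal WT with 33 counts, or 7.75% of the Ighv total (5.39% to 10.7%). Ighv1-4 led in normal Rab44-KO with 41 counts, or 7.33% (5.31% to 9.82%). Ighv1-26 led in OVA-induced WT with 1013 counts, or 6.56% (6.18% to 6.97%), and again in OVA-induced Rab44-KO with 568 counts, or 10.2% (9.43% to 11.0%). Ighv1-26 was also second in both normal libraries, with 27 and 35 counts. The 10 leading genes took 43.2%, 46.0%, 44.9% and 51.9% of the Ighv counts. The effective number of genes, taken as the inverse Simpson index (the number of equally used genes that would give the same evenness), was 33.5, 30.9, 32.2 and 25.6. After thinning to the 426 counts of the smallest library it was 33.5, 30.4, 30.1 and 24.3. By this index the OVA-induced Rab44-KO library was thus the least even at equal depth too. The expected number of genes with a count at that depth was 67, 63.9, 60.3 and 65.1, so by this number OVA-induced Rab44-KO was not the lowest. Without Ighv1-26, and at full depth, the index of OVA-induced Rab44-KO was 28.1. The first 50% of the Ighv counts lay in 13, 12, 12 and 10 genes, and 90% in 43, 38, 37 and 41 genes.

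**Figure D1:**
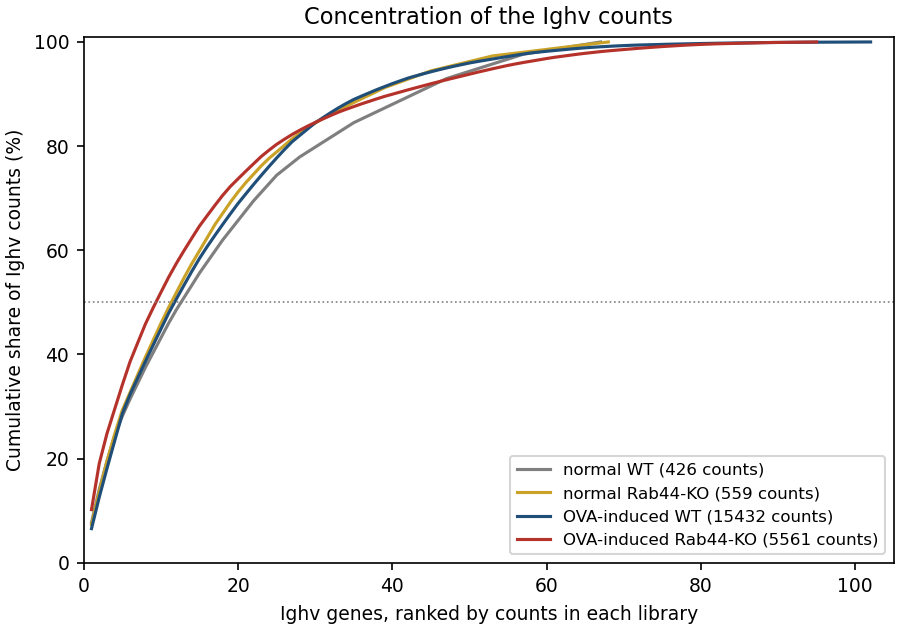
The horizontal axis ranks the Ighv genes by counts within each library and the vertical axis gives their cumulative share of that library's Ighv counts in percent, with 1 line per library. The OVA-induced Rab44-KO line crosses 50% at 10 genes, ahead of the other libraries at 12 to 13. At full depth 102 genes had a count in OVA-induced WT against 95, 68 and 67 in OVA-induced Rab44-KO, normal Rab44-KO and normal WT. These numbers depend on depth, and with both OVA-induced libraries at 5561 Ighv counts the expected numbers were 91.6 in WT and 95 in Rab44-KO.

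The lists of leading genes overlapped in part. The OVA-induced libraries of both genotypes shared 4 of their 10 leading genes (Ighv1-22, Ighv1-26, Ighv1-55 and Ighv1-69). The 10 leading genes of OVA-induced WT, which held 44.9% of its Ighv counts, held 26.4% of those in OVA-induced Rab44-KO. Conversely, the leaders of OVA-induced Rab44-KO, with 51.9% of its own counts, held 25.3% of those in OVA-induced WT. Summed over all members, 53.3% of the usage shares were common to these 2 libraries. The rank correlation of counts across the 80 genes with at least 10 counts was 0.47, which is across genes of 1 pair of libraries and not across replicates. Levels between genes were compared per length, as TPM (counts per length, scaled to 1 total per library). The 5 highest TPM in OVA-induced WT were those of Ighv1-26 (375), Ighv1-9 (343), Ighv1-39 (299.6), Ighv1-69 (288) and Ighv14-2 (272). In OVA-induced Rab44-KO they were those of Ighv1-26 (262), Ighv5-17 (226), Ighv5-4 (147), Ighv1-15 (120.3) and Ighv1-69 (114). Ighv1-9 and Ighv1-39 stood at 37.8 and 19.8 TPM in the latter library.

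Next, the 4 pairs of libraries were compared gene by gene. The log2 ratio carried a small prior count. Only members that reached 10 counts in a library of the pair entered, and a ratio beyond 2-fold was counted. The 4 comparisons share libraries, so their values stand side by side. In normal lungs Rab44-KO lay over 2-fold above WT for 11 of 25 members and over 2-fold below for 2, against 2.77% and 2.0% of 18718 genes. At a minimum of 1 count these numbers were 27 and 20 with a median log2 ratio of 0.073, and with intervals wholly beyond 2-fold they were 3 and 0. Of the 25 members, 15 reached 10 counts in normal WT and 21 in normal Rab44-KO. Some thus entered only through the library where they were higher, more often Rab44-KO, and the numbers and the median are in part set by the minimum. In OVA-induced lungs it lay over 2-fold above WT for 12 of 80 members and over 2-fold below for 50, against 8.40% and 7.34% of 19259 genes. Of 71 members in WT, 70 were over 2-fold higher and 0 over 2-fold lower with OVA, against 8.99% and 5.20% of 19023 genes. Of 66 members in Rab44-KO, 59 were over 2-fold higher and 0 over 2-fold lower with OVA, against 6.44% and 3.85% of 19073 genes. Most members entered the OVA comparisons only through the library where they were high, since 15 members had at least 10 counts in normal WT against 71 in OVA-induced WT, and 21 against 65 in Rab44-KO, so the share of higher members and the median there are in large part set by the minimum. These counts come from a size rule on 1 library per group, with no test and no unadjusted p. The median log2 ratios of the members were 0.55, -1.66, 5.22 and 3.50 in these comparisons, where the medians of all genes were 0.00, -0.02, 0.00 and -0.01. With counts of 0 set to a floor of 3 counts per library the members' medians were 0.56, -1.66, 4.74 and 2.95.

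The annotated V features on which reads were counted are short, although the V segment is transcribed as part of a full heavy chain RNA, and other genes of such short annotated length lay lower in the OVA-induced Rab44-KO library. The annotated lengths behind the TPM of the 80 members ran from 286 to 457 bases, with a median of 294. The 500 other genes nearest in length, immunoglobulin genes left out, had a median log2 ratio of -0.29 in the OVA-induced pair (range over members -0.40 to -0.29). Less that value, the median of the members was -1.36, with 17 over 2-fold higher and 44 over 2-fold lower. This correction was chosen after seeing the data, and whether it applies to V segments of longer RNAs was not tested.

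By family, Ighv1 (the J558 group), which has 92 of the 183 members, held the largest share of counts in every library. Its counts were 258, 353, 9723 and 3215, or 60.6%, 63.1%, 63.0% and 57.8% of the Ighv counts. In the OVA-induced pair the sum was 3.04-fold lower in Rab44-KO (2.93 to 3.17). Of its 43 members with at least 10 counts in the OVA-induced pair, 4 lay over 2-fold above and 30 over 2-fold below WT, against 8.40% and 7.34% of all genes, so the number above is near the background. The median log2 ratio was -2.07.

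**Figure D2:**
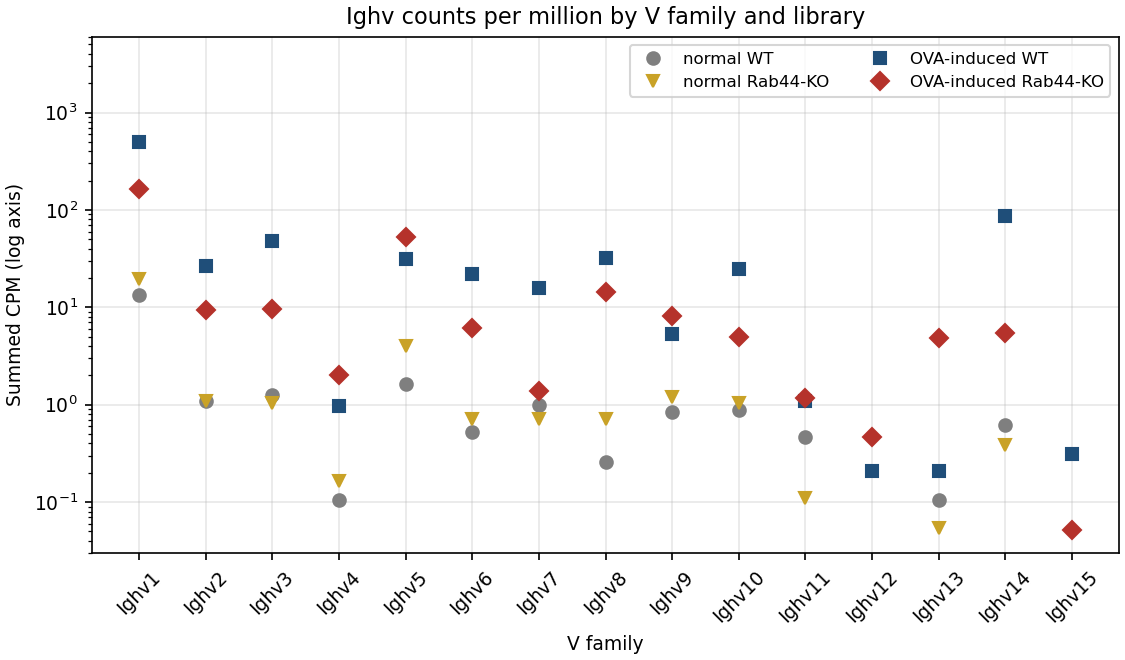
The horizontal axis lists the V families with any count and the vertical axis, on a log scale, gives the summed CPM of each family, with 1 symbol per library; a family with no count in a library has no symbol for it. Ighv1 is highest in each library, and Ighv4, Ighv5, Ighv9, Ighv11, Ighv12 and Ighv13 are the families whose OVA-induced Rab44-KO symbol lies above that of OVA-induced WT, with the intervals of Ighv11 and Ighv12 including equality.

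Ighv14 (the SM7 group) had the lowest share in Rab44-KO relative to WT in the OVA-induced pair. Its 4 members summed to 12, 7, 1677 and 106 counts. The family took 10.9% of Ighv counts (10.4% to 11.4%) in OVA-induced WT against 1.91% (1.56% to 2.30%) in its Rab44-KO counterpart, and its sum was 15.9-fold lower (13.1 to 19.6). Ighv14-2 had 1, 1, 851 and 21 counts, a log2 ratio of -5.34 (-6.05 to -4.73) between the last 2. Ighv14-4 had 5, 1, 480 and 20 counts, with a log2 ratio of -4.59 (-5.32 to -3.95). Ighv14-1 had 3, 5, 322 and 19, with -4.08 (-4.84 to -3.43). These 3 genes were high in OVA-induced WT alone. Ighv14-3, the copy printed beside Ighv14-2, lay the other way, with 3, 0, 24 and 46 counts and a log2 ratio of 0.93 (0.19 to 1.71). Without Ighv14-2 the family ratio was -3.29.

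Ighv5 (the VH7183 group) had a higher share in Rab44-KO than in WT in both conditions. Its 21 members, 11 of them pseudogenes, summed to 31, 74, 603 and 1019 counts, and the order of the genotypes was the same in normal and in OVA-induced lungs. Its share was 7.28% (5.0% to 10.2%) in WT and 13.2% (10.5% to 16.3%) in Rab44-KO normal lungs, and 3.91% (3.61% to 4.23%) and 18.3% (17.3% to 19.4%) in the OVA-induced ones. The intervals of the genotypes did not overlap within either condition. The summed log2 ratio of Rab44-KO over WT was 1.33 (0.71 to 1.98) in normal and 0.75 (0.60 to 0.90) in OVA-induced lungs. Only 3 members carried this direction in the OVA-induced pair. Ighv5-17 had 13, 14, 246 and 491 counts, Ighv5-4 had 9, 26, 120 and 320, and Ighv5-16 had 1, 19, 2 and 110. Ighv5-16 was thus near 0 in both WT libraries and counted in both Rab44-KO libraries. Of the other 4 members with at least 10 counts, Ighv5-6 had 89 and 40 counts in OVA-induced WT and Rab44-KO, Ighv5-9 had 48 and 20, Ighv5-12 had 52 and 2, and Ighv5-9-1 had 35 and 29. Ighv5-12, the close copy of Ighv5-4, thus lay lower in Rab44-KO, with a log2 ratio of -4.62 (-7.79 to -2.78), and the median over the 7 genes was -0.28. Without Ighv5-17 the family ratio was 0.56 (0.36 to 0.75).

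The remaining families split into those below and those at or above WT in the OVA-induced pair. Ighv7 (the S107 group) was 11.3-fold lower in Rab44-KO (7.64 to 17.5), Ighv10 was 5.0-fold lower (4.01 to 6.29), Ighv3 (the 36-60 group) 4.94-fold lower (4.22 to 5.81), and Ighv6 (the J606 group) 3.60-fold lower (2.93 to 4.45). Ighv2 (the Q52 group) was 2.81-fold lower (2.37 to 3.34) and Ighv8 (the VH3609 group) 2.23-fold lower (1.94 to 2.58). Several of these ratios moved without their leading member. Without Ighv7-1 the log2 ratio of Ighv7 was -1.37 (-2.30 to -0.50), without Ighv10-1 that of Ighv10 was -3.08 (-3.87 to -2.37), without Ighv3-1 that of Ighv3 was -1.42 (-1.68 to -1.16) and without Ighv2-2 that of Ighv2 was -0.52 (-0.82 to -0.23). Without Ighv6-3 no difference of Ighv6 was detectable (-0.08, -0.76 to 0.59). Ighv8 turned to 0.72 (0.42 to 1.02) without Ighv8-8, which had 471 and 31 counts where Ighv8-12 had 141 and 247. Ighv9 (the VGAM3.8 group), with 16, 22, 103 and 158 counts, was 1.52-fold higher (1.18 to 1.97). That direction rested on Ighv9-3, with 66 and 137 counts, and without it the log2 ratio was -0.83 (-1.67 to -0.02). Ighv4 was 2.04-fold higher (1.15 to 3.74) on 19 and 39 counts. Ighv11 had 21 and 23 counts, a log2 ratio of 0.12 (-0.80 to 1.05), so no difference was detectable at this depth. Ighv12 had 4 and 9 counts and Ighv15 had 6 and 1, with intervals that include equality. Ighv16-1, the single member of its family, had no count in any library, which allows up to 3 counts, or 0.154 to 0.164 CPM.

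**Figure D3:**
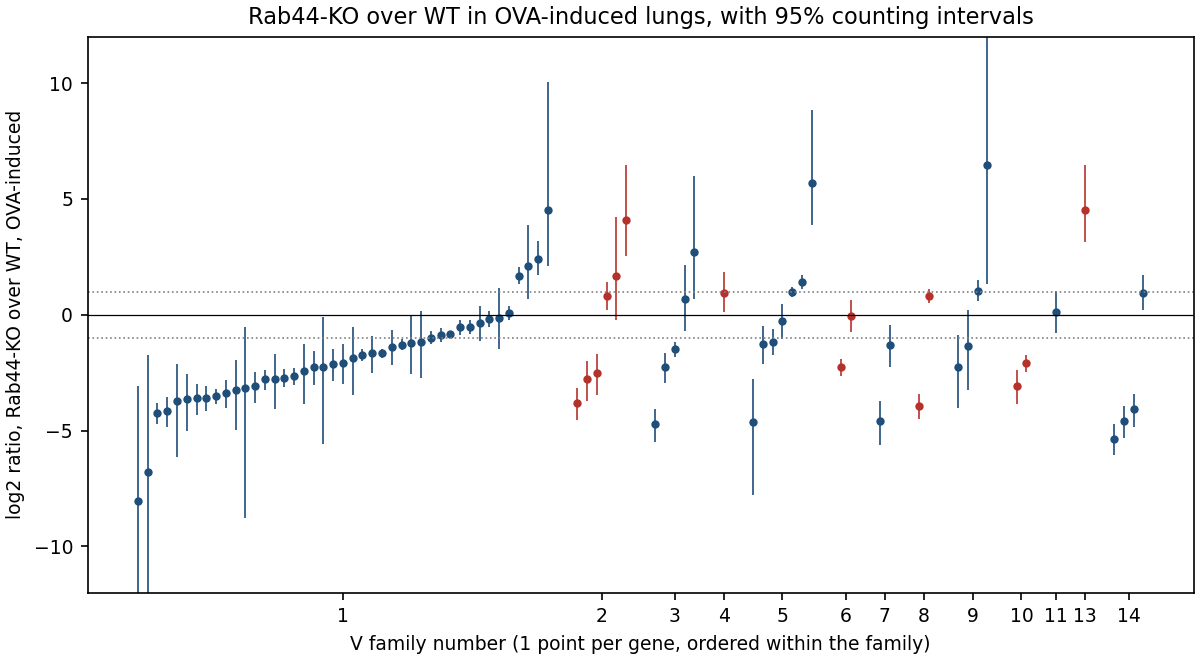
Each point is a member with at least 10 counts in an OVA-induced library, grouped by V family number on the horizontal axis, with its log2 ratio of OVA-induced Rab44-KO over OVA-induced WT on the vertical axis and its exact 95% counting interval as a line; intervals that run past the axis are cropped, a gene with 0 counts in 1 library stands at its ratio with the prior count, colours alternate between families and the dotted lines mark 2-fold. In Ighv1 30 of 43 points lie below the lower dotted line and 4 above the upper one, while in Ighv5 and Ighv14 members of the same family lie on both sides of 0.

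Among single genes with at least 30 counts in an OVA-induced library, those beside Ighv14-2, Ighv14-4 and Ighv5-12 with large ratios were as follows. Ighv3-1 had 8, 1, 472 and 18 counts, a log2 ratio of -4.71 (-5.49 to -4.05) in the OVA-induced pair. Ighv1-84 had 1, 0, 33 and 0 counts, so it was at least 11.1-fold lower, where "at least" sets the library at 0 to the floor of 3 counts and does not include the counting error of the other library. Its close copy Ighv1-75 had 1, 4, 20 and 106 counts and was 5.27-fold higher (3.24 to 8.97). Of this pair, each gene was thus the higher one in a different genotype. Ighv5-16 was 54.6-fold higher (14.8 to 457), Ighv13-2, with 2, 1, 4 and 95 counts, 23.6-fold higher (8.92 to 88.4), and Ighv2-5, with 3, 0, 3 and 54 counts, 17.9-fold higher (5.8 to 89.4). Ighv1-15, with 8, 5, 80 and 261 counts, was 3.24-fold higher (2.51 to 4.22). Of these 4 genes Ighv13-2 and Ighv2-5 were near or below the floor in the other 3 libraries, while Ighv1-15 had its second highest count in OVA-induced WT. Below that limit, Ighv1-36 with 1 and 26 counts was 25.8-fold higher (4.24 to 1059), and Ighv9-2 with 0 and 11 was at least 3.64-fold higher, with a counting interval from 2.49. These were named after their values were seen.

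**Figure D4:**
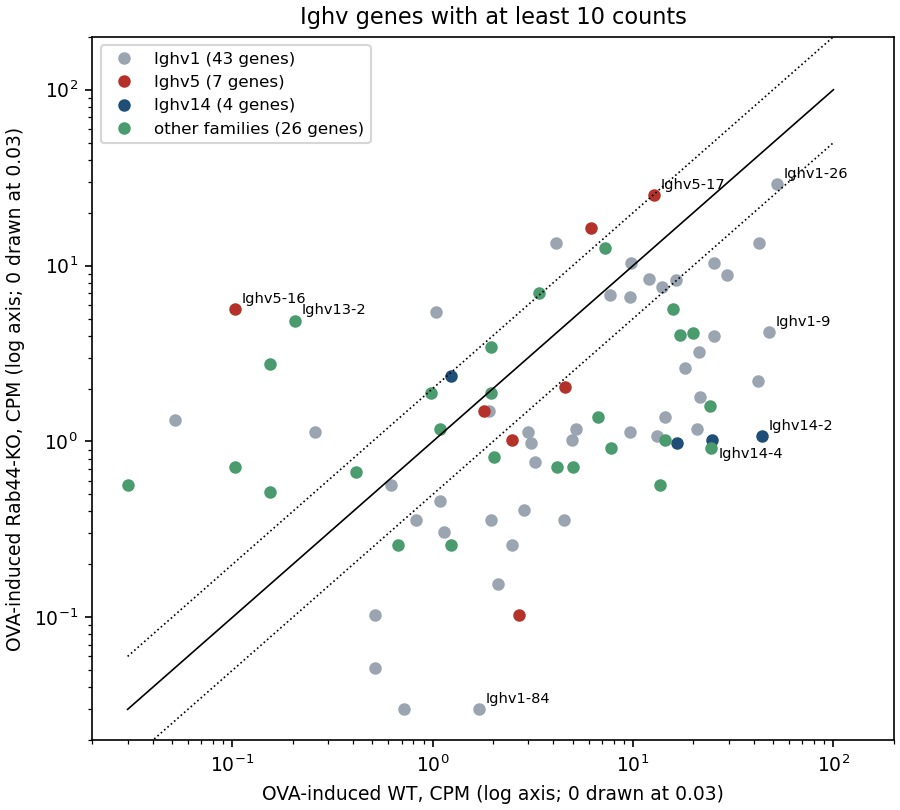
Each point is an Ighv gene with at least 10 counts in an OVA-induced library, with its CPM in OVA-induced WT on the horizontal and in OVA-induced Rab44-KO on the vertical axis, both on log scales, counts of 0 drawn at 0.03, the solid line at equality and the dotted lines at 2-fold. Ighv1-26 lies closest to the upper right corner, Ighv14-2 and Ighv1-9 far below the lines, and Ighv5-16 and Ighv13-2 far above them.

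The genes with most counts over the 4 libraries were picked mainly through OVA-induced WT, which held most of the counts, so their direction between genotypes follows in part from that choice. Their ratios spanned a wide range. Ighv1-26 had 27, 35, 1013 and 568 counts and was 1.80-fold lower, with a log2 ratio of -0.84 (-0.99 to -0.69). Ighv1-69, with 1, 12, 819 and 261, was 3.16-fold lower, and Ighv1-55, with 12, 9, 570 and 172, was 3.34-fold lower. Ighv1-22 had 9, 2, 493 and 203 counts and was 2.44-fold lower. Ighv1-53 had 33, 19, 490 and 78 counts and was 6.32-fold lower, and Ighv1-4 had 7, 41, 413 and 63 and was 6.60-fold lower. Ighv1-9, with 12, 16, 928 and 82 counts, was 11.4-fold lower, and Ighv1-39, with 7, 29, 810 and 43, was 19.0-fold lower. Ighv1-26 and Ighv1-39 are 92.5% identical over the V exon, with 23 differences. Ighv1-81, with 23, 18, 233 and 164 counts, and Ighv1-64, with 10, 33, 189 and 201, were within 2-fold, and the interval of Ighv1-64 included equality (-0.21 to 0.37 on the log2 scale).

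Several V segments are known for particular antibody responses of C57BL/6 or related mice. Ighv1-72 (V186.2) encodes the canonical heavy chain against nitrophenyl haptens. It had 11, 9, 419 and 35 counts and was 12.1-fold lower in Rab44-KO in the OVA-induced pair. It shares 45.5% of its 150-base windows with Ighv1-62-3, so reads could have been split between them. Ighv1-64, which is 96.1% identical to it over the V exon, was within 2-fold in that pair. Ighv7-1, the segment of the T15 antibodies to phosphorylcholine, had 3, 11, 263 and 11 counts and was 24.1-fold lower. Ighv11-2 and Ighv12-3, used by B-1 cells that bind phosphatidylcholine, had 9, 2, 21 and 23 counts and 0, 0, 4 and 9 counts. The 4 B-1 cell markers summed to 3791, 3781, 2959 and 2703 counts. Most of these lay in Bhlhe41, with 1451, 1273, 939 and 445, and Ahr, with 2200, 2380, 1755 and 2059. Cd5 had 77, 71, 144 and 89 counts and Zbtb32 had 63, 57, 121 and 110, so the sum does not follow these 2 genes. Ighv5-2 (VH81X), the V segment used early in B cell development, had 0, 0, 5 and 3 counts. None of Ighv11-2, Ighv12-3 and Ighv5-2 had an interval clear of equality in the OVA-induced pair.

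In normal lungs the counts were low, and the values of most members carried wide intervals. The largest ratios toward Rab44-KO among genes with at least 30 counts in a normal library were those of Ighv1-4, with 7 and 41 counts (log2 ratio 2.60, 1.45 to 4.02), and Ighv1-64, with 10 and 33 (1.78, 0.74 to 2.98). Ighv1-26, with 27 and 35, had 0.45 (-0.32 to 1.23). Ighv1-53, with 33 and 19, lay lower in Rab44-KO, at -0.72 (-1.62 to 0.13). Ighv5-16, with 1 and 19 counts, was higher in Rab44-KO in normal lungs as in OVA-induced ones, with a log2 ratio of 4.16 (1.67 to 9.70).

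With OVA, most members compared, which mostly entered through the OVA-induced library, were higher in both genotypes. The difference between genotypes was not tested. The exception among the 71 members compared in WT was Ighv1-12, with 21 counts in normal and 38 in OVA-induced lungs. Among the 66 compared in Rab44-KO the 7 within 2-fold were Ighv1-4, Ighv1-7, Ighv1-39, Ighv1-42, Ighv1-52, Ighv2-2 and Ighv7-1. Of these Ighv1-42 (log2 ratio -0.60, -2.24 to 0.93), Ighv1-7 and Ighv7-1 lay below 0, with Ighv7-1 at 11 counts in both libraries. In each genotype 12 of the members compared had no count in the normal library. In WT, Ighv1-59 went from 0 to 351 counts, at least 116-fold higher, Ighv14-2 from 1 to 851 and Ighv1-69 from 1 to 819. In Rab44-KO, Ighv2-5 went from 0 to 54 counts, at least 16.8-fold higher (interval from 13.2), Ighv14-3 from 0 to 46, at least 14.4-fold higher (interval from 11.2), and Ighv1-22 from 2 to 203, a log2 ratio of 6.49 (4.70 to 9.63). By the log2 ratio with the prior count, the members with the largest OVA ratios thus differed by genotype. In Rab44-KO the ranks of Ighv2-5 and Ighv14-3 rest on the prior count at a count of 0. Ighv13-2, from 1 to 95 counts in Rab44-KO, was 88.9-fold higher (15.6 to 3549), above the at least 16.8-fold and 14.4-fold of these 2 genes. Ighv1-4 and Ighv1-39 were over 2-fold higher with OVA in WT, at 5.84 and 6.82 on the log2 scale. In Rab44-KO their log2 ratios were 0.52 (-0.07 to 1.13) and 0.47 (-0.24 to 1.20).

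The position in the locus was described by ranking the V genes from the D-proximal end and dividing them into sets of 61. Recombination joins D-proximal V segments more often in fetal life, and distal V segments, mostly Ighv1 and Ighv8, depend on contraction of the locus. The proximal set held 30.5% (26.2% to 35.1%) of Ighv counts in WT and 27.9% (24.2% to 31.8%) in Rab44-KO normal lungs, and 26.2% (25.5% to 26.9%) and 30.9% (29.7% to 32.1%) in the OVA-induced ones. The distal set held 36.6%, 31.5%, 38.4% and 33.8%. Its order between the normal libraries turned with sets of equal distance (22.8% and 23.8%) and without each library's leading gene (31.3% and 34.0%). In the OVA-induced pair the distal set was 3.17-fold lower in Rab44-KO (3.01 to 3.34), the middle set 2.81-fold lower (2.66 to 2.96) and the proximal set 2.36-fold lower (2.23 to 2.50). By member, 7 of 29 proximal genes lay over 2-fold above WT and 15 over 2-fold below, against 4 and 14 of 22 in the middle set and 1 and 21 of 29 in the distal set, where 8.40% and 7.34% of all genes did. All 3 sets thus lay in 1 direction, with the proximal set least lower. That place of the proximal set rested on Ighv5, which held 603 and 1019 of its 4036 and 1718 counts in OVA-induced WT and Rab44-KO. With sets of equal distance in place of equal number, the proximal set was 2.27-fold lower (2.15 to 2.40), the middle set 3.19-fold (3.03 to 3.35) and the distal set 2.90-fold (2.74 to 3.06), so the order of the middle and distal sets turned. Position and family are linked, since Ighv2, Ighv7 and Ighv14 lie wholly in the proximal set, as does Ighv5 but for 1 member, and the proximal set held both the family furthest toward WT (Ighv14) and 1019 Ighv5 counts in OVA-induced Rab44-KO. Ighv1 alone, present in the middle and distal sets, had log2 ratios of -1.46 and -1.74 there. The rank correlation of position with log2 ratio was -0.20 across 80 members and -0.15 across the 43 of Ighv1.

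**Figure D5:**
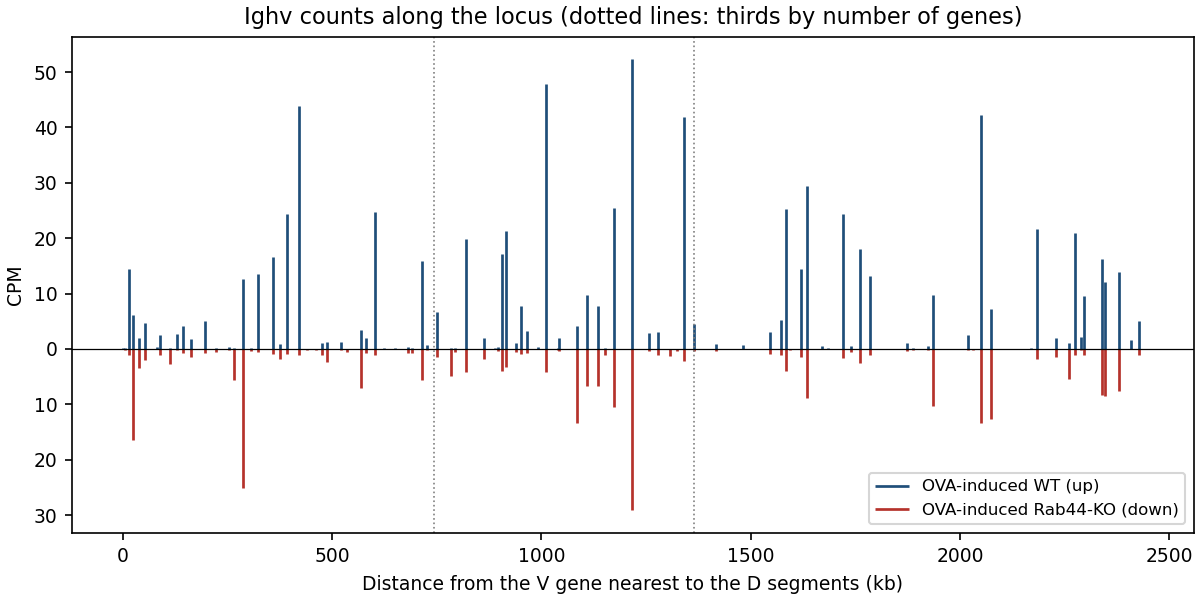
The horizontal axis is the distance in kb from the V gene nearest to the D segments, and the vertical lines give the CPM of each Ighv gene in OVA-induced WT (up) and OVA-induced Rab44-KO (down), with dotted lines between the sets of 61 genes. Counts are spread over the whole 2437 kb in both libraries, with the tallest line at Ighv1-26, at 1215 kb, at 52.3 CPM in OVA-induced WT and 29.1 CPM in OVA-induced Rab44-KO.

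The heavy constant and kappa variable genes were also lower in Rab44-KO in the OVA-induced pair. The 8 heavy constant genes summed to 3481, 4044, 101583 and 28056 counts, with 6 of 8 over 2-fold lower in OVA-induced Rab44-KO, against 7.34% of all genes, and a median log2 ratio of -2.22. Per 100 heavy constant counts there were 12.2, 13.8, 15.2 and 19.8 Ighv counts. Ighm (the IgM constant gene) had 2103, 2070, 56984 and 9570 counts and Ighg1 (IgG1) had 45, 26, 10764 and 1043. Igha (IgA), with 689, 1396, 15811 and 12100, had a log2 ratio of -0.40 in the OVA-induced pair, and was higher in Rab44-KO in normal lungs at 1.09. Ighe (IgE) had 4, 0, 96 and 13 counts. The kappa variable genes (Igkv) summed to 882, 968, 29708 and 7403, with Rab44-KO over 2-fold above WT for 5 of 81, which is near the background of 8.40%, and over 2-fold below for 55, against 7.34%. There were 48.3, 57.7, 51.9 and 75.1 Ighv counts per 100 Igkv counts. D segments held 0, 2, 1 and 3 counts and J segments 25, 26, 33 and 45, so these lay toward Rab44-KO in the OVA-induced pair, with summed log2 ratios of 1.58 (-2.06 to 7.29) and 0.44 (-0.24 to 1.13) whose intervals include equality.

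Genes that rearrange or switch these segments were within 2-fold between the genotypes after OVA. Of 18 genes of V(D)J recombination and class switching, 15 had at least 10 counts in the OVA-induced pair and 0 were over 2-fold higher or lower, which is near the background of 8.40% and 7.34% of all genes for so short a list, with a median log2 ratio of -0.16. The recombinase genes Rag1 and Rag2 had 0 or 1 count in every library. The 3 genes of octamer-dependent V promoter activity (Pou2f1, Pou2f2 and Pou2af1) were within 2-fold in that pair, and Pou2af1, a B cell coactivator, had 297, 218, 1102 and 862 counts. Jchain, which joins IgM and IgA units, had 266, 521, 15799 and 4761 counts, and Mzb1, a chaperone of immunoglobulin assembly, had 98, 74, 956 and 185. Of the plasma cell markers 5 of 10 were over 2-fold lower and none over 2-fold higher in OVA-induced Rab44-KO, and of the B cell markers 2 of 10 were lower. None of the 8 germinal centre markers passed 2-fold among the 6 with at least 10 counts. With the background of 7.34% lower, the B cell and germinal centre counts are too small to read as a result. Bcl6, which directs the germinal centre programme, had 1025, 745, 664 and 757 counts. In the OVA-induced pair the log2 ratios of these 6 were 0.18 for Bcl6, 0.18 for Mybl1 and 0.42 for Fas. Those of S1pr2, Gcsam and Basp1 were -0.39, -0.63 and -0.82.

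Close copies limit what a count per V gene means. The median identity of a V exon to its closest other member was 94.1%, and 72 of 183 were at 95% or more. By exact match, 8 members shared a 150-base window (the read length) with another gene. These held 3.03% and 1.19% of the Ighv counts of WT and Rab44-KO in the OVA-induced pair. The windows lie wholly in the germline V exon, so reads with fewer V bases or with mismatches could match more members. Ighv1-62-2 and Ighv1-71 had identical V exons, so their counts cannot be told apart. V regions of switched B cells also carry somatic mutations, and how the authors' counting treated reads with several matches is not given in the sources used here.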

How the data were processed

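Lung RNA of 4 groups was measured by RNA-seq, with 1 library per group, and each library was placed in its group by its label. Per the study's methods, the authors trimmed 150-bp paired-end reads from a directional kit, mapped them by HISAT2 to GRCm38 and obtained counts per gene by featureCounts. Versions, the strand setting and the treatment of reads with several matches are not given in the sources used here. The authors deposited raw counts per gene, and beside them TPM, which divides each count by a gene length and scales each library to 1 total. The counts were used for every ratio, and TPM for comparing levels between genes and as an alternative.

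Library sizes were scaled by TMM over all 41079 genes with edgeR 4.0.16 in R 4.3.3. Other steps used Python 3.11.15, numpy 2.4.6, pandas 2.3.3, scipy 1.17.1 and matplotlib 3.10.9. The authors' DESeq2 test was not repeated, since 1 library per group leaves no residual degrees of freedom. The log2 ratios used a prior count of 0.125 and members whose higher library of the pair had at least 10 counts. Where a library had 0, a floor of 3 counts per library took its place. Intervals are at the 95% level and cover counting error only. The steps were tested on simulated data.

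Ighv starts in the deposited table differ from RefSeq GRCm38.p6 by 1 constant offset in all 183 genes, so positions and sequences were taken from GENCODE M21 (GRCm38) by symbol, which matched all 183, and distances along the locus from the deposited table. The RefSeq GRCm38.p6 feature lay, within a small margin, inside the GENCODE gene of the same symbol for 170 of them. Identity was computed by global alignment of V exons, counting gaps as differences.

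The members and gene lists were chosen with earlier results of these data known. Genes were named if among the 10 with most counts overall or the 3 with most in a library, among the 5 largest ratios per direction in the OVA-induced pair or the 3 largest in the other pairs (at least 30 counts), alone in their family, named by the study for these libraries, or of textbook interest. Further members of Ighv2, Ighv5, Ighv6, Ighv8, Ighv9, Ighv10 and Ighv14 and the identical pair were named after their values were seen. Alternatives were DESeq2 1.42.0 size factors, total counts, TMM without immunoglobulin genes, TPM (pseudocount 0.1), a prior count of 2, count minimums of 1 and 50, a log2 limit of 2, intervals wholly beyond 2-fold, thinning, leaving out leading or window-sharing members, and sets of the locus of equal distance. A correction for transcript length was added after seeing the data. A withheld item is not reported here.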

Additional observations from a re-analysis of the deposited data

Results flagged for a closer look

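The results below were singled out because Rab44-KO lay above WT in normal lungs and below WT in OVA-induced lungs, with both counting intervals clear of 0. Single genes were searched only among the named ones. Many of those were named for their counts or ratios in these same libraries, so their change of sign follows in part from that choice. Each side is 1 library against 1 library, and the difference between the conditions was not tested. For all Ighv genes summed, the log2 ratio of Rab44-KO over WT was 0.47 in normal and -1.48 in OVA-induced lungs, a difference of -1.95. For the Ighv1 family it was 0.53 and -1.61, a difference of -2.13. Ighv1-39 went from 2.10 to -4.24, a difference of -6.35, on 7 and 29 counts in normal and 810 and 43 in OVA-induced lungs. Ighv1-4 went from 2.60 to -2.72, a difference of -5.32, Ighv1-69 from 3.50 to -1.66, a difference of -5.16, and Ighv7-1 from 1.90 to -4.57, a difference of -6.48. Ighv1-69 had 1 count in normal WT and Ighv7-1 had 3, so the normal side of these 2 rests on very few reads.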

How the results depend on the processing

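No paired analysis was possible because each group has 1 library. The sign of the summed log2 ratio was kept in 24 of 24 alternatives, and that of the median in 35 of 35. In the OVA-induced pair the summed ratio was -1.42 with total counts, -1.13 with TPM and -1.54 without the leading gene, which is Ighv1-26 in both libraries. Summed TPM gave 4.99 for OVA over normal in WT and 3.36 in Rab44-KO. A prior count of 2 gave medians of 4.44 and 2.80 for these, and the floor gave 4.74 in WT. Counts in normal lungs depended most on the minimum. With a minimum of 1 count the median there was 0.073, with 27 members over 2-fold higher and 20 lower. With a minimum of 50 both numbers were 0. A log2 limit of 2 left 6 and 1, and intervals wholly beyond 2-fold left 3 and 0. In the OVA-induced pair, minimums of 1 and 50 gave 19 and 7 members higher. With a minimum of 1, members over 2-fold lower with OVA numbered 1 in WT and 2 in Rab44-KO. With a minimum of 50, 26 were higher with OVA in Rab44-KO.

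The effective number of genes by Shannon entropy was 45.1, 41.3, 43.2 and 40.1 in the order of the report. The inverse Simpson index thinned to the smallest total was 30.1 and 24.3 for WT and Rab44-KO after OVA, and at full depth it was 28.1 in the latter without its leading gene. With TPM, the shares in OVA-induced WT were 64.2% for Ighv1, 10.02% for Ighv14 and 25.2% for the proximal set. Without the leading gene of a library, the Ighv1 share was 60.4% and 53.0% in the OVA-induced pair, the Ighv14 share was 11.6% in WT and the Ighv5 share 20.4% in Rab44-KO. In that pair the proximal set was then 28.0% and 34.4% and the distal set 41.1% and 37.7%, and the distal set was 31.3% in normal WT and 34.0% in normal Rab44-KO. With sets of equal distance, the proximal set held 27.0% and 33.2% after OVA, and the distal set 22.8%, 23.8%, 32.2% and 31.0% in the 4 libraries. The distal order of the genotypes in normal lungs was turned under both of these alternatives. The normal libraries, with 426 and 559 Ighv counts, limit every comparison that uses them. Beyond fewer or other genes entering an alternative, the cause of these moves was not tested.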
